A study of Homo sapiens with 2 samples.

Results

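The HLA and peptide-loading genes described here were measured in HCT116, an epithelial cell line established from a human colorectal cancer. They are HLA-B, HLA-C, HLA-E, HLA-DRA, HLA-DRB1, B2M, TAP1, TAP2 and TAPBP, chosen by their symbols in the deposited table, which held 1 row for each, 9 of 28615 symbols in all. The study had 1 library from cells labelled as an SRD5A1 knockdown and 1 from cells labelled as a control, both of HCT116. The titles add the tag Dox to the knockdown and the tag KD to the control. Neither tag is explained in the labels, nor are the means of lowering SRD5A1 or the use of clones or pools of cells. SRD5A1 encodes a steroid 5-alpha reductase, and the question is which transcripts differ when it is lowered. There were no replicates, so no test between conditions was possible, the spread between cultures is unknown, and every difference describes these 2 libraries.

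MHC class I molecules show peptides from inside the cell to CD8 T cells, and their HLA heavy chains reach the surface with the invariant light chain beta-2-microglobulin. The peptides are cut by proteasomes, carried into the endoplasmic reticulum by the TAP transporter and loaded with the help of tapasin. MHC class II molecules show peptides from the endocytic route to CD4 T cells and are made mainly by professional antigen-presenting cells, while epithelial cells make them after interferon-gamma. Loss of class I or of the loading machinery is a known route by which colorectal tumours escape T cells.

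The knockdown library held 54740670 counts and the control library 41814981. SRD5A1 itself was at 6.25 FPKM in the knockdown and 10.8 FPKM in the control library, lower in the library labelled as its knockdown, with a ratio of CPM (counts per 1000000 of the library) of 0.581 (exact Clopper-Pearson 95% interval 0.554 to 0.609). FPKM, the main measure, is the count per kilobase of gene model scaled to the library total. Differences are in log2(FPKM + 1), knockdown minus control, which understates those of weak genes, and intervals of ratios cover counting error only. Of 10143 genes with a mean of at least 1 FPKM, 20.9% lay 2-fold or more above and 6.83% 2-fold or more below the control library in the knockdown, and their median difference was 0.30. The share of mitochondrially encoded genes was 12.8% in the knockdown library and 18.3% in the control, and the part of this in the results was tested only by leaving them out of the totals, which changed the sign of no member. Epithelial markers were seen in both libraries, and 9 of 12 had a mean of at least 1 FPKM. CDX2 passed only through the knockdown library (7 FPKM, against 0.767 FPKM in the control). The summed level of the list was 1690 FPKM in the knockdown and 1150 FPKM in the control library, mostly from the keratins KRT8, KRT18 and KRT19. KRT20 was under the filter, VIL1 had 4 counts in the knockdown library, against 0 in the control, and LGALS4 had 0 in both.

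All 9 genes were expressed, and they are grouped here by role. The class I chains HLA-B, HLA-C, HLA-E and B2M were moderately lower in the knockdown library (4 of 4, median difference -0.45), the transport and loading genes TAP1, TAP2 and TAPBP were higher (3 of 3, median 0.84), and the class II chains HLA-DRA and HLA-DRB1 were lower (both past 2-fold). In all, 6 of 9 differences were below 0, as were 35.7% of all expressed genes, and the median of the 9 was -0.41. At least 2-fold apart were 3 of the 9, against 27.7% of expressed genes, so the share of members past 2-fold was near the background. In RNA from whole cultures, fewer cells that make a transcript and less of it per cell cannot be told apart.

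**Figure D1:**
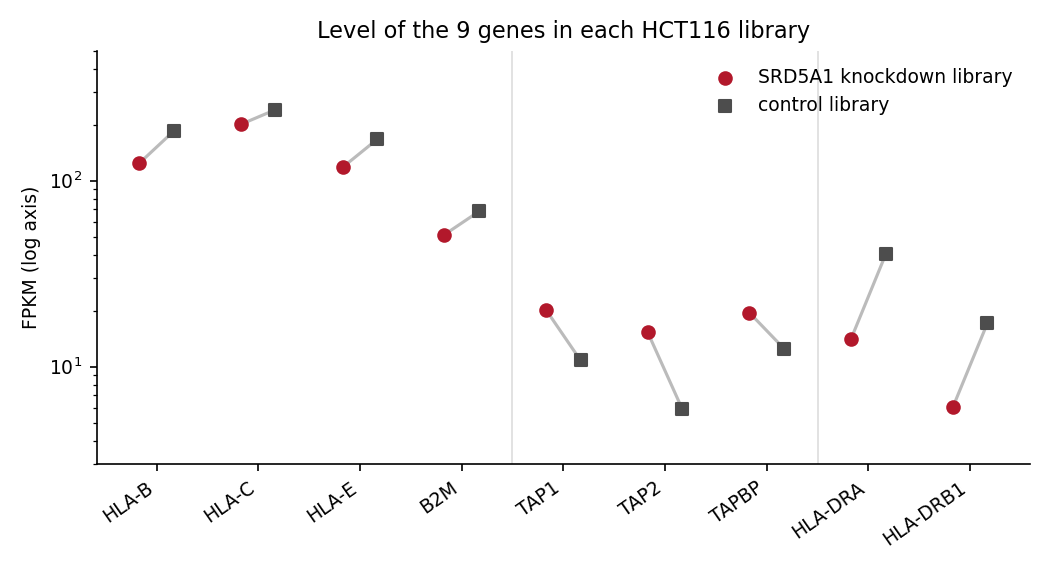
FPKM on a log axis for each of the 9 genes, with 1 point for the SRD5A1 knockdown library (circle, left) and 1 for the control library (square, right). The knockdown point lies below the control point for HLA-B, HLA-C, HLA-E, B2M, HLA-DRA and HLA-DRB1 and above it for TAP1, TAP2 and TAPBP.

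HLA-C, HLA-B and HLA-E encode class I heavy chains, of which HLA-C and HLA-B present varied peptides and HLA-E presents mainly leader peptides of other class I chains to NKG2A receptors of natural killer cells. HLA-C (ENSG00000204525, chromosome 6, 31268749 to 31272105, minus strand, 8 exons in its principal transcript) was at 201 FPKM (32919 counts) in the knockdown and 241 FPKM (30147 counts) in the control library. It was the most abundant of the 9 in both libraries and lay lower in the knockdown, with a difference of -0.26 and a CPM ratio of 0.834 (0.821 to 0.847). HLA-B (ENSG00000234745, chromosome 6, 31269491 to 31357179, minus strand) was at 124 FPKM (24678 counts) in the knockdown and 185 FPKM (28143 counts) in the control library. It had the lowest ratio of the class I chains, 0.67 (0.658 to 0.681), for a difference of -0.57. HLA-E (ENSG00000204592, chromosome 6, 30489509 to 30494194, plus strand) was at 118 FPKM (22607 counts) in the knockdown and 167 FPKM (24375 counts) in the control library. Its ratio of 0.708 (0.696 to 0.721) lay between those of the other heavy chains, and its difference was -0.49.

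B2M (ENSG00000166710, chromosome 15, 44711487 to 44718877, plus strand) encodes beta-2-microglobulin and is the only one of the 9 outside chromosome 6. It was at 51.2 FPKM (20336 counts) in the knockdown and 68.3 FPKM (20731 counts) in the control library. Its ratio of 0.749 (0.735 to 0.764) and difference of -0.41 placed the light chain within the range of the 3 heavy chains. None of the 4 class I chains was 2-fold apart. Summed, they took 0.184% of the counts in the knockdown library, against 0.247% in the control.

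Promoters are shown for the genes that lay together, because the class I genes share known control elements: a kappaB site bound by NF-kappaB, an interferon-stimulated response element, and a module bound by RFX, CREB and NF-Y factors with the co-activator NLRC5. RefSeq (GRCh38.p14) promoters were given for 7 of the 9 genes, with HLA-E and HLA-DRA missing. Each sequence is the reference allele, runs 5' to 3' over the 250 bases before the start, and has in capitals every match, on either strand, to CCAAT (the NF-Y box), TGACG (the core of a cyclic AMP response element), GAAA-NN-GAAA (interferon-stimulated response element), GGG-NN-TT-N-CC (kappaB) or TTC-NNN-GAA (the gamma-activated sequence, GAS), where N is any base and hyphens only part the blocks. Neighbouring or overlapping matches run into 1 stretch of capitals. HLA-B is at chr6:31357180-31357429 (minus strand), HLA-C at chr6:31272093-31272342 (minus strand) and B2M at chr15:44711267-44711516 (plus strand).
HLA-B: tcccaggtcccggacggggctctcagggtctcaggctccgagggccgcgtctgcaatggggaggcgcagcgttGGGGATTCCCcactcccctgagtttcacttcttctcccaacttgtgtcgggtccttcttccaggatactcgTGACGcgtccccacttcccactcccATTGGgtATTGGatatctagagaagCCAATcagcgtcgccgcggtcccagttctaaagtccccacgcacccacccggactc
HLA-C: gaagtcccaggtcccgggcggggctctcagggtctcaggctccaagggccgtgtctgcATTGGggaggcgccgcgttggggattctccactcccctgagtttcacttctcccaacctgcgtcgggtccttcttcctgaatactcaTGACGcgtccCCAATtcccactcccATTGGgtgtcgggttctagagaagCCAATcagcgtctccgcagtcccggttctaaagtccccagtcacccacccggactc
B2M: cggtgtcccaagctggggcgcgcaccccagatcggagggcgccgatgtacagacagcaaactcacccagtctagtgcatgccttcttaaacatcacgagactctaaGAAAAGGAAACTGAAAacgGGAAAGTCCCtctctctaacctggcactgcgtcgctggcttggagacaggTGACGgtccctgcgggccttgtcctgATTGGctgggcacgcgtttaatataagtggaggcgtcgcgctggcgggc

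All 3 class I windows held CCAAT and TGACG, which 32% and 21.2% of 35116 RefSeq promoter windows of the same length also held. B2M had the TGACG 75 to 71 bases and an inverted CCAAT 49 to 45 bases before the start, HLA-B had TGACG 106 to 102 bases and HLA-C 105 to 101 bases before it. The kappaB letters were found in HLA-B (177 to 168 bases before the start) and, on the other strand, in B2M (125 to 116 bases), and in 5.07% of all windows. The response element letters GAAA-NN-GAAA were in B2M at 144 to 135 and 138 to 129 bases before the start, in overlap, in neither HLA-B nor HLA-C as exact letters, and in 3.02% of all windows. These are letter matches in the reference genome and not measured binding.

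The transport and loading genes lay on the other side of 0. TAP1 and TAP2 encode the paired subunits of the peptide transporter, and TAPBP encodes tapasin, which bridges the transporter to class I and edits the bound peptide. TAP1 (ENSG00000168394, chromosome 6, 32845209 to 32853978, minus strand) was at 20.2 FPKM (6333 counts) in the knockdown and 10.8 FPKM (2601 counts) in the control library. Its level was higher in the knockdown library, with a ratio of 1.86 (1.78 to 1.95) and a difference of 0.84, short of 2-fold on this scale. TAP2 (ENSG00000204267, chromosome 6, 32821833 to 32838739, minus strand) was at 15.3 FPKM (6397 counts) in the knockdown and 5.91 FPKM (1883 counts) in the control library. It was the 1 member at least 2-fold higher, with a ratio of 2.6 (2.46 to 2.73) and a difference of 1.24. That call ended with the median ratio over genes set to 1 (0.90) and with the upper quartiles made equal (0.89), although TAP2 stayed higher in the knockdown library in both. TAPBP (ENSG00000231925, chromosome 6, 33299694 to 33314387, minus strand) was at 19.5 FPKM (6440 counts) in the knockdown and 12.5 FPKM (3159 counts) in the control library. It was higher by 0.60, with a ratio of 1.56 (1.49 to 1.63).

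Among all expressed genes these values were less extreme than those of the class II chains. Of 10143 expressed genes, 63.7% had a lower difference than TAPBP, 73.7% than TAP1 and 86% than TAP2, whereas 3.59% had a lower one than HLA-DRA and 3.99% than HLA-DRB1. HLA-B, HLA-E, B2M and HLA-C had 14.4%, 16.4%, 18.9% and 24.2% of expressed genes below them. These places describe the members among the genes of these libraries and carry no test.

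**Figure D2:**
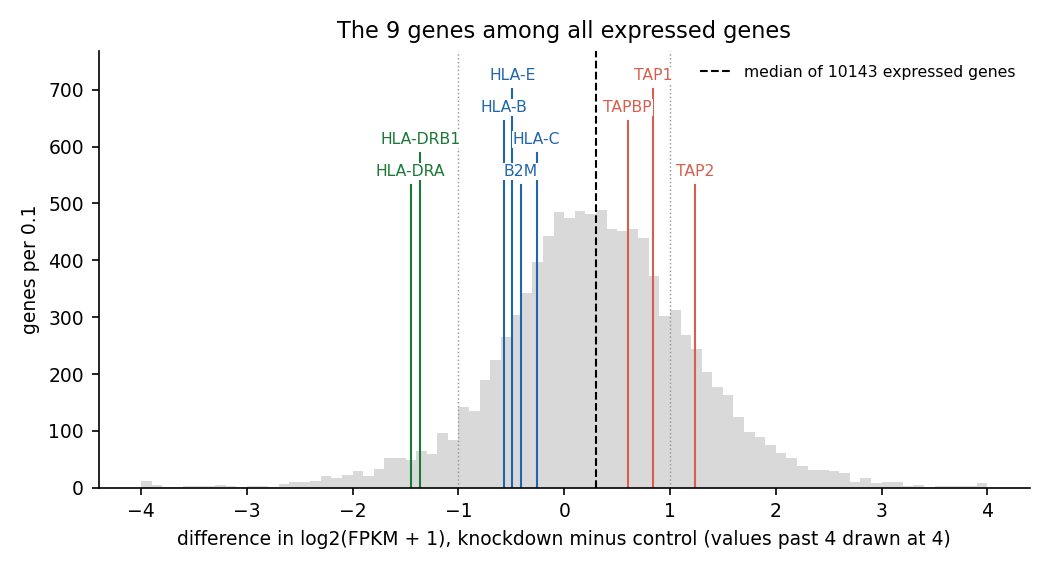
Histogram of knockdown minus control differences in log2(FPKM + 1) over 10143 expressed genes, with a coloured line for each of the 9 genes and a dashed line at the median of all genes. The class II chains (green) lie left of -1, the class I chains (blue) between -0.57 and -0.26, and the transport and loading genes (red) right of the median of 0.30.

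The promoters of the loading genes are shown for the same elements. TAP1 is at chr6:32853705-32853954, TAP2 at chr6:32838740-32838989 and TAPBP at chr6:33314079-33314328, all on the minus strand, and of TAP1 the upstream one of its RefSeq starts was taken.
TAP1: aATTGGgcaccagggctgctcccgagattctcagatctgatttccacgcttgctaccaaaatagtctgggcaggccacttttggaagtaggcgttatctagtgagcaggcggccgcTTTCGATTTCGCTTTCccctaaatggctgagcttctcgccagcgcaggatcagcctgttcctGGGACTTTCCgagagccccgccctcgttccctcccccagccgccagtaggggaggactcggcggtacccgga
TAP2: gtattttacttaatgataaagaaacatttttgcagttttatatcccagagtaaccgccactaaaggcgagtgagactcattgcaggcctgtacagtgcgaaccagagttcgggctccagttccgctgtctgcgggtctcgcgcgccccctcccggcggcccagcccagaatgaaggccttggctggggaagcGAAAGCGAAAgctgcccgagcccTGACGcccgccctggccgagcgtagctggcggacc
TAPBP: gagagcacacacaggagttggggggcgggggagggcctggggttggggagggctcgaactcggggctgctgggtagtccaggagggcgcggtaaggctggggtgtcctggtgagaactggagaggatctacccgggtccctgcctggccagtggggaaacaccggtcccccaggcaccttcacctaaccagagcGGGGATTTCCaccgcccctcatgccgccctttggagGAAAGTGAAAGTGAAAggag

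Each of these 3 windows held GAAA-NN-GAAA or its reverse complement. In TAP1 it lay in overlap at 134 to 125 and 128 to 119 bases, in TAP2 at 58 to 49 bases and in TAPBP in overlap at 20 to 11 and 14 to 5 bases before the start. The kappaB letters were in TAP1 (72 to 63 bases) and TAPBP (56 to 47 bases). The GAS letters, in 6.57% of all windows, were in none of the 6 windows printed so far. The window of the other RefSeq start of TAP1, chr6:32852762-32853011, held GAS letters at 189 to 181 bases before that start and no exact match to the other 4 patterns.

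TAP1 shares a control region with PSMB9, an interferon-inducible catalytic subunit of the immunoproteasome that is read from the opposite strand, and their RefSeq starts lie 488 bases apart. PSMB9 was at 7.65 FPKM (1670 counts) in the knockdown and 2.9 FPKM (483 counts) in the control library. It was higher with TAP1, at a ratio of 2.64 (2.39 to 2.93) and a difference of 1.15. The rows of TAP1 and PSMB9 overlap on opposite strands, so without stated strand use some of their reads cannot be told apart. PSMB8, the neighbouring immunoproteasome subunit next to TAP2, was at 0.561 FPKM (131 counts) in the knockdown and 0.634 FPKM (112 counts) in the control library. Its ratio of 0.893 (0.689 to 1.16) had an interval that includes 1, so a difference was not detectable at this depth. PSMB10, another of these subunits, was at 9.96 FPKM in the knockdown and 6.49 FPKM in the control library, a difference of 0.55.

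Peptide supply as a whole, these subunits included, is described by its counts. Of 15 expressed genes of proteasome subunits, activators and cytosolic peptidases, 14 were above 0 and 1 below, and 5 of them were at least 2-fold higher. Over all expressed genes 64.3% were above 0 and 20.9% at least 2-fold higher, and the medians were 0.71 for the list and 0.30 for all. PSME3, the nuclear proteasome activator REG-gamma, was at 12.2 FPKM in the knockdown and 1.95 FPKM in the control library (2.16). The peptidase THOP1, which trims and destroys cytosolic peptides, differed by 1.34 and the constitutive catalytic subunit PSMB7 by 1.12. The activator PSME4 went the other way, at 0.903 FPKM in the knockdown and 1.41 FPKM in the control library. With the median ratio set to 1, 1 of the 15 was at least 2-fold higher and the median was 0.33, beside 13.1% at least 2-fold higher and a median of 0 over all expressed genes. ERAP1, which trims peptides in the endoplasmic reticulum, was at 1.02 FPKM (530 counts) in the knockdown and 0.372 FPKM (149 counts) in the control library, a CPM ratio of 2.72 (2.26 to 3.28).

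The general chaperones of the loading complex differed less than TAP and tapasin. PDIA3, the oxidoreductase joined to tapasin, was at 87.1 FPKM in the knockdown and 93.4 FPKM in the control library (-0.10). The lectin chaperones calreticulin and calnexin lay on the other side of 0, CALR at 496 FPKM in the knockdown and 419.6 FPKM in the control library (0.24) and CANX at 32.1 FPKM in the knockdown and 25.2 FPKM in the control library (0.33). The sign of CALR turned under 3 scalings (median ratio set to 1, upper quartile, TMM) and that of CANX under the first 2 of these. SEC61A1, the channel through which the chains enter the endoplasmic reticulum, was at 105 FPKM in the knockdown and 51 FPKM in the control library (1.02). UGGT1, which checks glycoprotein folding, differed by 0.44 and the glucosidase II subunits PRKCSH by -0.34 and GANAB by 0.14, which turned sign under the same 3 scalings as CALR. Over the 9 expressed genes of this list other than members, 6 were above 0 and 3 below, a share near the 64.3% above 0 among all expressed genes. The median was 0.14 beside 0.30 for all expressed genes, and -0.23 beside 0 with the median ratio set to 1.

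**Figure D3:**
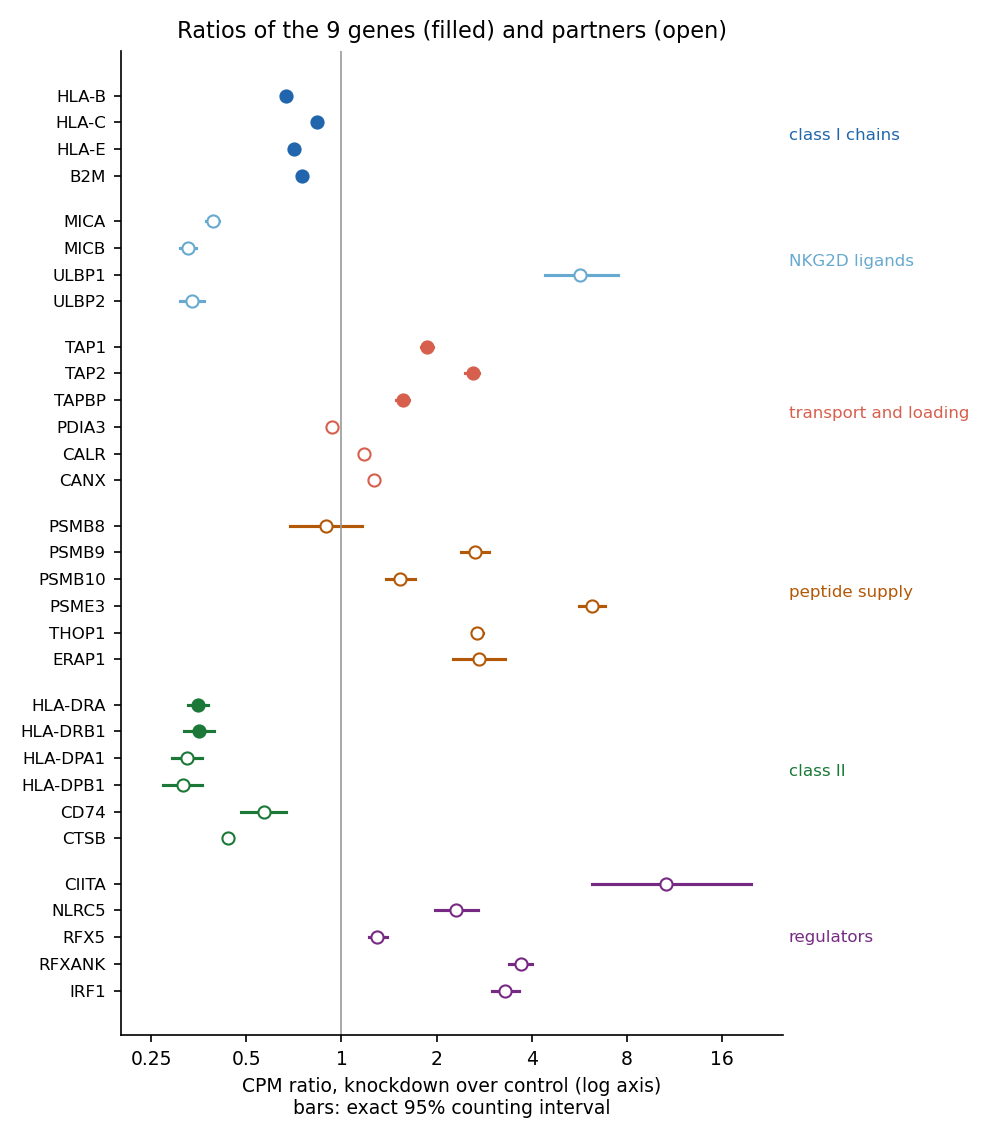
CPM ratios, knockdown over control, on a log axis for the 9 genes (filled) and named partners (open), with bars for the exact 95% counting interval. Class I and class II chains lie left of 1, TAP1, TAP2, TAPBP and PSMB9 right of 1, and the interval of PSMB8 crosses 1.

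HLA-DRA encodes the near-invariant alpha chain and HLA-DRB1 the variable beta chain of the class II molecule HLA-DR. HLA-DRA (ENSG00000204287, chromosome 6, 32439878 to 32445046, plus strand, 5 exons) was at 14.1 FPKM (1144 counts) in the knockdown and 40.1 FPKM (2488 counts) in the control library. HLA-DRB1 (ENSG00000196126, chromosome 6, 32578769 to 32589848, minus strand, 6 exons) was at 6.03 FPKM (485 counts) in the knockdown and 17.1 FPKM (1046 counts) in the control library. Both chains were lower in the knockdown library and by nearly the same factor, with ratios of 0.351 (0.327 to 0.377) for HLA-DRA and 0.354 (0.317 to 0.395) for HLA-DRB1. Their differences were -1.45 and -1.36, and both calls held under all 11 alternatives.

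The HLA-DRB1 promoter is shown because class II genes carry a related module of RFX, CREB and NF-Y sites that the co-activator CIITA needs. It lies at chr6:32589849-32590098 on the minus strand.
HLA-DRB1: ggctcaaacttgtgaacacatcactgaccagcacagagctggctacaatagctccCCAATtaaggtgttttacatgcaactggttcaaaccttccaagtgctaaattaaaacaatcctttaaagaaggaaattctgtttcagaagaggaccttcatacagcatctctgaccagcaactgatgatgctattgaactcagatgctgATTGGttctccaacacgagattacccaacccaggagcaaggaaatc

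This window held CCAAT letters at 195 to 191 bases and, inverted, at 46 to 42 bases before the start. No exact match to the other 4 patterns was found in it, which says only that those letters are not in this window.

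The other class II genes of the table lay lower in part. HLA-DPA1 and HLA-DPB1, the chains of HLA-DP, were at 1.25 and 0.807 FPKM in the knockdown library, against 3.83 and 2.57 FPKM in the control library. Their ratios of 0.325 (0.291 to 0.363) and 0.315 (0.273 to 0.363) were close to those of the HLA-DR chains, at a lower level. Of the HLA-DQ chains, under the filter, HLA-DQA1 had 3 counts in the knockdown library, against 48 in the control (ratio 0.0477, 0.00951 to 0.148). HLA-DQB1 had 31 counts in the knockdown library, against 103 in the control (ratio 0.23, 0.149 to 0.346). HLA-DQA2 had 0 counts in the knockdown library, against 15 in the control. For HLA-DQB2, with 20 counts in the knockdown library, against 23 in the control, the interval of the ratio included 1 (0.664, 0.346 to 1.26). HLA-DMA and HLA-DMB, which help to load class II, were at 8.27 and 3.08 FPKM in the knockdown and 8.77 and 3.2 FPKM in the control library, with differences of -0.08 and -0.04. HLA-DOB, a modulator of HLA-DM, differed by 0.29. CD74, the invariant chain that escorts class II, was at 0.801 FPKM (253 counts) in the knockdown and 1.42 FPKM (341 counts) in the control library, a ratio of 0.567 (0.48 to 0.669). The lysosomal protease CTSB was at 125 FPKM in the knockdown and 286 FPKM in the control library (-1.19). Of the 12 expressed genes of this list other than members, 9 were below 0 and 3 above, and 2 were at least 2-fold lower (CTSB and HLA-DPA1), with a median of -0.28. Among all expressed genes 35.7% were below 0, 6.83% were at least 2-fold lower and the median was 0.30. With the median ratio set to 1, 4 of the 12 were at least 2-fold lower, beside 11.6% of all expressed genes.

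CIITA, the master regulator of class II genes, went the other way from the class II chains. It had 195 counts (0.141 FPKM) in the knockdown and 14 counts (0.0125 FPKM) in the control library, a CPM ratio of 10.6 (6.19 to 19.8) between very low levels. NLRC5, its class I counterpart, was at 0.793 FPKM (649 counts) in the knockdown and 0.339 FPKM (215 counts) in the control library, a ratio of 2.31 (1.97 to 2.7). Of the DNA-binding RFX complex, RFXANK was at 20.6 FPKM in the knockdown and 5.57 FPKM in the control library (1.72), and RFX5 at 8.49 FPKM in the knockdown and 6.5 FPKM in the control library (0.34, and -0.01 with the upper quartile). IRF1, an interferon-induced factor that binds these promoters, was at 4.23 FPKM (2152 counts) in the knockdown and 1.28 FPKM (498 counts) in the control library. It was higher in the knockdown library, with a difference of 1.20 and a ratio of 3.3 (2.99 to 3.65). NFKB1 differed by 1.57, the NF-Y subunit NFYC by 1.28 and SP1 by -0.53. Of 17 expressed transcription factors of MHC genes, 13 were above 0 and 4 below, with 6 at least 2-fold higher, 0 lower and a median of 0.56. The same values over all expressed genes were 64.3% above 0, 20.9% at least 2-fold higher, 6.83% lower and a median of 0.30. With the median ratio set to 1, 3 of the 17 were at least 2-fold higher, near the 13.1% of all expressed genes.

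Markers of white blood cells, which make class II, were scarce in both libraries. Of 18 leukocyte markers found, 15 were under a mean of 1 FPKM, MS4A1, CD3E, CD2 and TYROBP had 0 counts in both libraries, and the pan-leukocyte gene PTPRC had 4 counts in the knockdown library, against 0 in the control. The summed level of the list was 7.94 FPKM in the knockdown and 18.2 FPKM in the control library, lower in the same direction as HLA-DR, and most of it came from ITGAX, CD68 and CORO1A. CD68 was at 1.28 FPKM in the knockdown and 7.79 FPKM in the control library, and ITGAX at 1.16 FPKM in the knockdown and 5.14 FPKM in the control library, both low in the knockdown. CORO1A was high there, at 4.26 FPKM in the knockdown and 2.51 FPKM in the control library. The part of this list in the class II result was not tested.

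Relatives of class I with another task, the stress-induced ligands of the NKG2D receptor of natural killer and T cells, differed strongly and not all one way. MICA was at 16.7 FPKM in the knockdown and 42.7 FPKM in the control library (-1.30), and MICB at 9.11 FPKM in the knockdown and 27.9 FPKM in the control library (-1.51). ULBP2 was lower as well, at 8.66 FPKM in the knockdown and 25.7 FPKM in the control library (-1.47). ULBP1 went the other way, at 2.31 FPKM (485 counts) in the knockdown and 0.403 FPKM (65 counts) in the control library (1.24). ULBP3 was at 3.33 FPKM in the knockdown and 3.25 FPKM in the control library. Of the 7 expressed class I relatives that are not members, 4 were below 0 and 3 above, with a median of -0.35, beside 35.7% below 0 and a median of 0.30 over all expressed genes. With the median ratio set to 1, 6 were below 0 and 1 above, with a median of -0.73 beside 0 over all expressed genes. Of the less variable chains, HLA-F was at 9.99 FPKM in the knockdown and 7.92 FPKM in the control library, and HLA-G had 0 counts in both.

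Ratios of counts between members within a library do not depend on library scaling. HLA-DRB1 counts were 0.424 of HLA-DRA counts (95% interval 0.38 to 0.472) in the knockdown library, against 0.42 (0.391 to 0.452) in the control, so the intervals for the balance of the HLA-DR chains overlapped. The HLA-DP chains behaved likewise, with HLA-DPB1 at 0.591 of HLA-DPA1 (0.507 to 0.687) in the knockdown library, against 0.61 (0.554 to 0.672) in the control. The transporter chains did not keep their balance. TAP2 counts were 1.01 of TAP1 counts (0.975 to 1.05) in the knockdown library, against 0.724 (0.682 to 0.768) in the control. TAP1 counts were 0.311 of B2M counts (0.303 to 0.32) in the knockdown library, against 0.125 (0.12 to 0.131) in the control, so transporter relative to light chain was 2.48 times as high in the knockdown library. B2M counts were 0.618 of HLA-C counts (0.607 to 0.629) in the knockdown library, against 0.688 (0.676 to 0.7) in the control. HLA-B counts were 0.75 of HLA-C counts (0.737 to 0.762) in the knockdown library, against 0.934 (0.918 to 0.949) in the control. Both were thus lower relative to HLA-C in the knockdown library.

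The order of levels differed between the libraries in its lower part. In FPKM, HLA-C, HLA-B, HLA-E and B2M stood first in that order in both. After them came TAP1, TAPBP, TAP2, HLA-DRA and HLA-DRB1 in the knockdown library, and HLA-DRA, HLA-DRB1, TAPBP, TAP1 and TAP2 in the control library. Without replicates it cannot be said which neighbours in these orders differ beyond the spread between cultures.

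Levels between genes depend on the length used. The deposited FPKM follow the union of all annotated exons: for 8906 rows with 200 or more counts in each library, the length that counts and FPKM imply was 1.19 times the GENCODE 29 union (5th to 95th percentile over rows 1.14 to 1.23). For B2M that union is 6079 bases while its principal transcripts have 943 to 1705 bases, and for HLA-DRA the union and the principal transcript are both 1280 bases. Per kilobase of its shortest principal transcript, B2M had 394 CPM in the knockdown and 526 CPM in the control library, and per kilobase of its longest 218 CPM in the knockdown and 291 CPM in the control library. On the same scale HLA-C had 392 CPM in the knockdown and 469 CPM in the control library, HLA-B 291 CPM in the knockdown and 435 CPM in the control library, and HLA-E 159 CPM in the knockdown and 224 CPM in the control library. With the shortest transcript B2M was therefore first of the 9 in both libraries, above HLA-C. In CPM per kilobase of principal transcript, the knockdown library had TAPBP at 62.3, TAP2 at 46.8, TAP1 at 39.1, HLA-DRA at 16.3 and HLA-DRB1 at 7.21. In the control library TAPBP was at 40, TAP2 at 18, TAP1 at 21, HLA-DRA at 46.5 and HLA-DRB1 at 20.4. HLA-DRA was thus the highest of these 5 in the control library, while both HLA-DR chains were the lowest in the knockdown library. A gene's ratio between the libraries does not depend on this choice.

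Some members share sequence or position with other rows, which makes their values less certain. The HLA-B row spans that of HLA-C in part, with 2615 bases in common on the same strand. Of the 50-base windows of the principal transcripts, 21% in HLA-B, 15.2% in TAP1, 6.79% in HLA-C, 5.76% in HLA-E and 9.92% in HLA-DRB1 also occur in transcripts of other genes. None does in HLA-DRA, B2M or TAPBP. HLA-B shared most with AL671883 (18.5% of its windows) and only 2% with HLA-C, and the rows named AL671883 that overlap HLA-B had 0 counts in both libraries. TAP1 shared most with PSMB8-AS1 on the opposite strand, which had 20 counts in the knockdown library, against 0 in the control. HLA-DRB1 shared most with HLA-DRB5, which had 28 counts in the knockdown library, against 34 in the control. TAP2 shared 80.2% of its windows with AL669918, a transcript that runs through it on the same strand, and that row had 202 counts in the knockdown library, against 169 in the control, few beside those of TAP2.

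Of the 9 genes, 8 lie in the MHC on chromosome 6, and their neighbours there did not all go with them. From GABBR1 to KIFC1 (29555629 to 33409896) 116 rows were expressed, 8 of them members. Of the other 108 rows, 64 were above 0 and 44 below, 19 lay past 2-fold on the high side and 17 on the low side, and the median was 0.22. All expressed genes had 64.3% above 0, 20.9% past 2-fold on the high side, 6.83% on the low side and a median of 0.30. The unit differs, as the region was counted by rows and all genes by symbols with rows summed. The low side also includes short RNA rows, namely MIR6832, SNORD117, RNU6-850P, RNY4P10 and MIR6891, where few reads give an FPKM past the filter. MIR6891 had 5 counts (0.684 FPKM) in the knockdown and 18 counts (3.86 FPKM) in the control library. The highest at a mean of at least 5 FPKM were the zinc finger gene ZBTB12 (3.09), PPP1R10, a regulatory subunit of protein phosphatase 1 (2.98), and C6orf47 (2.92). The lowest were the heat shock genes HSPA1A (-2.57) and HSPA1B (-2.50), nearly identical genes that can trade reads, and the chromatin reader BRD2 (-1.75), which lies between HLA-DMA and HLA-DOA. Among the expressed rows of the region, differences of opposite sign lay side by side, as for HLA-DRB1 (-1.36), HLA-DOB (0.29) and, a little further on, TAP2 (1.24). HLA-DOB had a mean of only 1.43 FPKM. Its difference was near the median of 0.30 over all expressed genes, and was 0.06 with the upper quartile made equal.

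**Figure D4:**
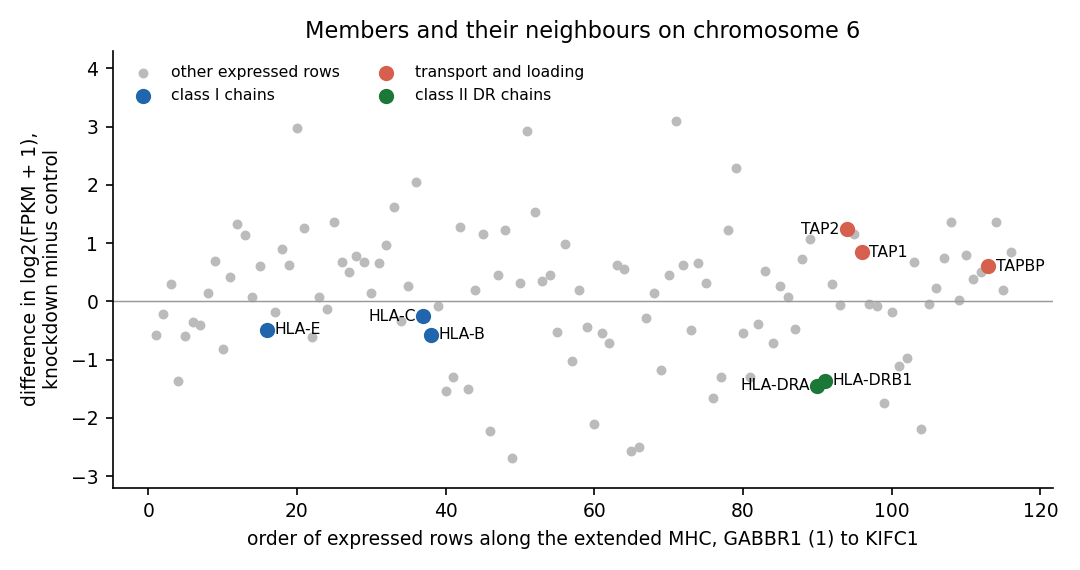
Difference in log2(FPKM + 1), knockdown minus control, of the 116 expressed rows of the extended MHC in their order along chromosome 6, with the 8 members there coloured by role. The HLA-DR chains (green, about -1.4) and the TAP genes (red, 0.84 and 1.24) lie close to each other in the order and on opposite sides of 0.

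A scaling applies the same factor to all genes of a library, so places relative to other genes can shift only through the pseudocount. The median over all expressed genes was 0.30 in the main measure, -0.02 with the upper quartile and 0.10 with TMM, and the median of the 9 genes lay 0.71 below it in the main measure and 0.78 and 0.76 below it in these. All 9 signs were the same under every one of 11 alternatives. Several of these could not change a member's sign: the filters, the pseudocounts, CPM and the choice of row. Only the scalings, the totals without mitochondrially encoded genes and the removal of a trend with GC content and transcript length could. The split of calls over all genes depended on scaling more: 75.3% of the genes 2-fold apart were higher in the knockdown library, 53.1% with the median ratio set to 1, 51.6% with the upper quartile and 61.1% with TMM.

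**Figure D5:**
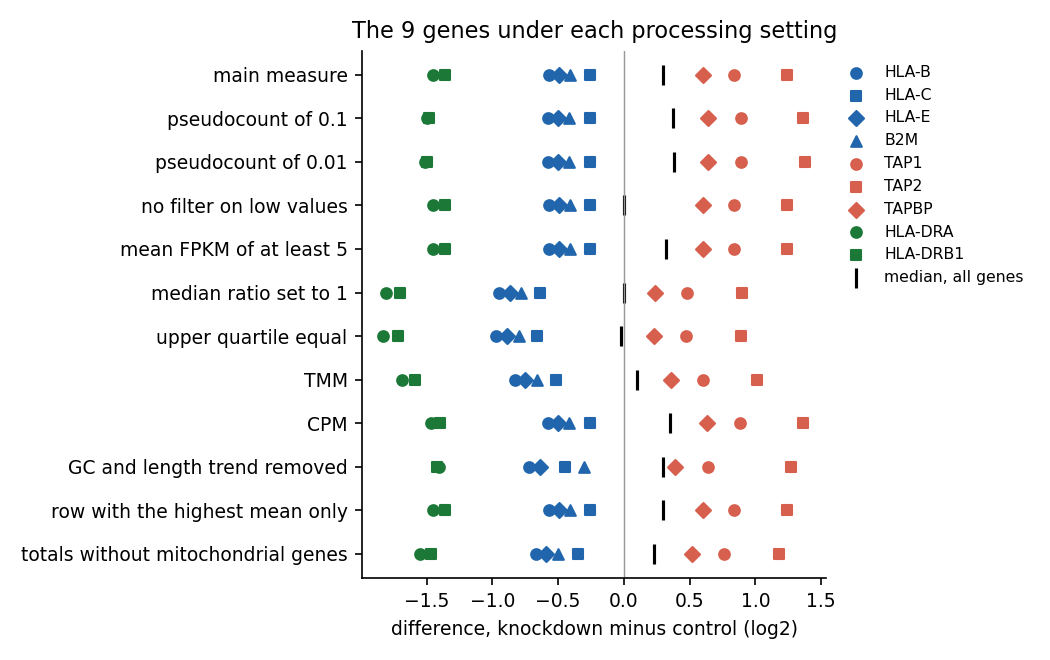
Difference of each of the 9 genes (log2, knockdown minus control) under the main measure and 11 alternatives, 1 line each, with a black bar at the median of all genes tested. HLA-DRA and HLA-DRB1 stay left of -1, the class I chains between -1 and 0, and TAP1, TAP2 and TAPBP right of 0 throughout.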

How the data were processed

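Poly(A) RNA of 2 HCT116 samples was sequenced as paired ends, per the labels' protocols. The authors deposited 1 table of FPKM values and raw counts per gene row. Bowtie 0.12.2, HISAT2 2.0, StringTie 1.3.0 and the mouse build mm8 are named, with no role, per the submitters' processing notes. Identifiers are human Ensembl ones, and of 31659 rows found in GENCODE 29 (GRCh38) 69.2% have the same position there, so positions are the table's, on GRCh38. Neither the counting program nor the strand setting is given in the sources used here.

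Columns were matched to samples by the tags in the titles. Rows of 1 symbol were summed. Differences used a pseudocount of 1 and a mean of at least 1 FPKM (Python 3.11.15, pandas 2.3.3, scipy 1.17.1), and a call is a difference of at least 1. Counts gave depth and exact Clopper-Pearson 95% intervals. These cover counting error only, as no molecular identifiers are named that would mark PCR copies. Depth was 54740670 counts for the knockdown and 41814981 for the control. With 1 library per group there was no test. Named were the 9 genes, set partners, up to 4 further genes per list by size of difference, and the 3 highest and 3 lowest genes of the MHC. Of the up to 4 per list, at least 1 was taken against the sign of the list's median where one existed, even if others differed more. HLA-F, HLA-G, ULBP3, the HLA-DM chains, HLA-DRB5, CXCL9, CXCL10, GBP1, GBP2, CD274 and the leukocyte markers named were added after their values were seen. So were HLA-DQA1, HLA-DQA2, HLA-DQB1, HLA-DQB2, PSMB8-AS1, AL671883, the epithelial markers named and the short RNA rows named in the MHC. Members, lists and rules were chosen with earlier results of these data known. There were 10 alternatives, and 1 more was added after seeing the data. Some genes that the rules take are not reported here.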

Additional observations from a re-analysis of the deposited data

How the results depend on the processing

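All 9 signs, both HLA-DR calls and the sign of the median of the 9 genes were the same under 10 alternatives and 1 more chosen after seeing the data, the library totals without mitochondrially encoded genes. That median was -0.41 in the main measure and between -0.80 and -0.41 otherwise. The filters and the choice of row left every member's value as it was, and the pseudocounts and CPM could not change a sign. The signs were thus put to the test only by the remaining alternatives. The number of members at least 2-fold higher was 1 (TAP2) in the main measure and 0 with the median ratio over genes set to 1 and with the upper quartile made equal, which lower every difference. Over all expressed genes, 2115 lay past 2-fold on the high and 693 on the low side, 1327 and 1174 with the median ratio set to 1, 1292 and 1212 with the upper quartile, 2873 and 1049 with a pseudocount of 0.01, and 1136 and 345 at a mean of at least 5 FPKM, where fewer genes are tested. Among the partners and list genes named by rule, CALR, CANX, GANAB and RFX5 changed sign under a scaling and the others under none of the 11. No paired analysis was possible because each group has 1 library. For the same reason no library could be left out, and depth limits only the weakest genes: the limit behind a count of 0 is 3 counts, which is 0.0548 CPM for the knockdown and 0.0717 CPM for the control. Whether the differences would recur in other cultures was not tested.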

Other observations

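Of the interferon-gamma pathway, the receptor subunit IFNGR2 was at 13.4 FPKM in the knockdown and 6.66 FPKM in the control library (0.91), and JAK1, a kinase bound to the receptor, at 5 FPKM in the knockdown and 8.39 FPKM in the control library (-0.65). The feedback inhibitors of cytokine signalling went apart, with SOCS1 at 0.253 FPKM (30 counts) in the knockdown and 2.64 FPKM (238 counts) in the control library, and SOCS3 at 9.6 FPKM in the knockdown and 3.59 FPKM in the control library. The interferon-induced chemokines CXCL9 and CXCL10 had 0 counts in both libraries, and GBP1, a guanylate-binding protein induced by interferon-gamma, had 4 counts in the knockdown library, against 0 in the control. GBP2, of the same family, had 72 counts in the knockdown library, against 237 in the control (ratio 0.232), and CD274, the checkpoint ligand PD-L1, had 59 counts in the knockdown library, against 144 in the control (ratio 0.313). Of 8 expressed genes of this list 5 were above 0 and 3 below, with a median of 0.49 and 3 at least 2-fold higher. The share above 0 was near the 64.3% of all expressed genes, of which 20.9% were at least 2-fold higher and the median was 0.30. With the median ratio set to 1, 4 were above 0 and 0 at least 2-fold higher, beside 13.1% of all expressed genes.

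HLA-H, annotated as a class I pseudogene, was at 43.9 FPKM (3143 counts) in the knockdown and 67.1 FPKM (3670 counts) in the control library, a ratio of 0.654 (0.624 to 0.686). It shares sequence with the class I genes, so reads may be split between them. HCP5, a long noncoding RNA gene, was at 5.16 FPKM in the knockdown and 1.53 FPKM in the control library (1.28). It lay on the other side of 0 from MICA and MICB. Its row overlaps that of MICA on the same strand and ends before MICB, so some reads of HCP5 and MICA may not be told apart. Of 8 fibroblast markers found, 7 were under a mean of 1 FPKM, and the summed level of that list was 3.17 FPKM in the knockdown and 4.28 FPKM in the control library.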
